A study of Mus musculus with 4 samples.

Results

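The 9 genes described here make, regulate or store glucose in the liver. They are Pcx, Pck1, Fbp1, G6pc, Pklr, Pfkfb3, Ppargc1a, Crtc2 and Gys2. They were taken from a list of names and not by a cut-off on a measured value, but with earlier results of these data known. A peak was assigned to one of them when the deposited lists named it as the nearest gene, or when the peak lay within 50 kb of the 5′ end of the gene in the GENCODE annotation. Of the 17545 called peaks in all, 99 met this rule, with 27 in GR replicate 1, 42 in GR replicate 2, 21 in E2A replicate 1 and 9 in E2A replicate 2. The nearest gene gave 76 of them, the 50 kb window added 23 whose nearest gene was another one, and no peak was assigned to more than 1 of the 9 genes.

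The peaks come from ChIP-Seq of the glucocorticoid receptor (GR) and of E2A, the protein family encoded by Tcf3 that includes E47, with 2 replicates for each. All 4 samples are whole livers of male C57BL/6 mice with both E47 alleles intact (E47+/+), fed chow and collected at zeitgeber time 10 h, that is 10 h after lights on. The methods give an age of 10 to 16 weeks. The sample labels call the livers untreated, whereas the description of a supplementary list speaks of dexamethasone treatment. The lists give where a peak was called and how wide it is, with no read count, height or q-value, so that the strength of binding and the reads behind a peak are unknown and a missing peak is only an absence from the list. In whole liver, binding in fewer cells and weaker binding in each cell cannot be told apart.

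Peaks lay within 10 kb of 5 to 7 of 8 hepatocyte marker genes in each list and of none of 8 lymphocyte or 4 Kupffer cell genes. The lists were of unequal length, with 4291 and 7334 GR peaks and 4028 and 1892 E2A peaks. For E2A, the free-text description of each sample speaks of GR (the second in E47-/- livers), while title, antibody and genotype say E2A in E47+/+, and the latter were used. The GR replicate numbers follow the titles, which are opposite to the numbers in the names of the lists.

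In the fasted state hepatocytes make glucose from lactate, alanine and glycerol. Pyruvate carboxylase (Pcx) opens the pathway, phosphoenolpyruvate carboxykinase (Pck1) and fructose-1,6-bisphosphatase (Fbp1) bypass the irreversible steps of glycolysis, and glucose-6-phosphatase (G6pc) releases free glucose. Liver pyruvate kinase (Pklr) and the bifunctional enzyme Pfkfb3 act on the glycolytic side, Ppargc1a (PGC-1α) and Crtc2 are coactivators of the fasting response, and Gys2 is the liver glycogen synthase. GR is known to bind the glucocorticoid response element (GRE), an inverted repeat, and E proteins bind E-boxes, CANNTG.

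Upstream sequence is shown for genes with a GR peak over the start in both replicates, since these peaks overlapped it. RefSeq promoters (GRCm38.p6, the mm10 assembly) were matched for 7 of the 9 genes, with 10 promoters among them, and the 250 bases before the start are printed 5′ to 3′ along the gene. Capitals mark matches to CANNTG, to the cAMP response element TGACGTCA with at most 1 mismatch, to the forkhead sequence TGTTTTG, to the GRE with at most 2 mismatches and to the carbohydrate response element (ChoRE), each searched on both strands. Crtc2 and Gys2 are named only.
Pck1 (chr2:173152823-173153072, plus strand): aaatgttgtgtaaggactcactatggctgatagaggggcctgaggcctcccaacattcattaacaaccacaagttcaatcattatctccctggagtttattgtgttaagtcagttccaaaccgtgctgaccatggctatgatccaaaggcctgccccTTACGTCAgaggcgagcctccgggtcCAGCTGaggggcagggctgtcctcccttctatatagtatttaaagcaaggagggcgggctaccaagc
G6pc (chr11:101367466-101367715, plus strand): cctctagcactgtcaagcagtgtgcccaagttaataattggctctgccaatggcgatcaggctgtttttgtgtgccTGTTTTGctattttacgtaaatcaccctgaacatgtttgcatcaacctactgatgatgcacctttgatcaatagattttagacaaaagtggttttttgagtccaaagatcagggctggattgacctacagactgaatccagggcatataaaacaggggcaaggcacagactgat
Fbp1 (chr13:62888283-62888532, minus strand): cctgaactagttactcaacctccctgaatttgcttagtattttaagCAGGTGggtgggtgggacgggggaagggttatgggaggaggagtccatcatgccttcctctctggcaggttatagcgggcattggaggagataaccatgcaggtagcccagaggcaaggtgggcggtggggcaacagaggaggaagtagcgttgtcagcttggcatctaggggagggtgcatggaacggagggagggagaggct
Pklr, internal start (chr3:89136373-89136622, plus strand): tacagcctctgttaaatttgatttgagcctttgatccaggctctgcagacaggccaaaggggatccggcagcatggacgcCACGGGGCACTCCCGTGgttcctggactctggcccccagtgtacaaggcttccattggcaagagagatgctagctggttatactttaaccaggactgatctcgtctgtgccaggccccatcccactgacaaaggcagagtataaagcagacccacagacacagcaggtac
Pcx, proximal start (chr19:4594069-4594318, plus strand): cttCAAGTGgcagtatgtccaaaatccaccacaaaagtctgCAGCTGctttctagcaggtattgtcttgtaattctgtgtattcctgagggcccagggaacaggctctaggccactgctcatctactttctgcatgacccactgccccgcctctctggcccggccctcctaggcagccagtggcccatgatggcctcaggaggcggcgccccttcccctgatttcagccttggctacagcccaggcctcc

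The Pck1 promoter held TTACGTCA at -93 from its RefSeq start, 1 mismatch from the palindromic CRE, and CAGCTG at -67. Of all 32851 RefSeq promoters of the same length (250 bases before and 50 from the start on), 12.5% held a CRE at this tolerance, 16.3% held CAGCTG and 72.3% held any CANNTG. G6pc had TGTTTTG at -174, which 6.28% of promoters held, and no CANNTG. The internal Pklr promoter held a ChoRE at -170, the element through which ChREBP is known to act on this gene, and 39 promoters (0.119%) had one. The proximal Pcx promoter held CAGCTG at -209. It also held AGAACTTTGTATTCT, a GRE with 2 mismatches, from 16 bp past the RefSeq start, beyond the printed bases and across the GENCODE start at 4594346. The GRE was found at this tolerance in 14.9% of promoters. Fbp1 held CAGGTG at -204, a core that 20.2% of promoters had, and it lay under the peak of GR replicate 2 and outside those of GR replicate 1 and E2A replicate 1. No promoter of the 7 genes held AGAACA, the GRE hexamer, which 19.0% of promoters held. The forkhead sequence TGTTTAC (3.65% of promoters) and the C/EBP-like TTGCNNAA (10.8%) were likewise not found. Neither was CAAAGTCCA, an HNF4-like sequence, or the same with CAAAGTTCA (0.861% for either). These are matches of letters and not sites of binding.

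Nearly all of the 9 genes had a peak of each ChIP within 50 kb. The paper already names Pck1 and G6pc as bound by GR and E2A, so the set is not independent of these data. GR peaks lay there for 8 genes in replicate 1 (all but Pcx) and for 9 in replicate 2, where 23.6% and 41.8% of 21911 protein-coding genes had one. E2A peaks were within 50 kb of 8 genes in replicate 1 (all but Ppargc1a) and of 5 in replicate 2 (Pck1, G6pc, Fbp1, Pfkfb3 and Crtc2), against 26.5% and 13.7% of coding genes. In either replicate, 9 genes had a GR peak (44.0% of coding genes) and 8 an E2A peak (28.7%). A peak in all 4 lists was found for 5 genes (7.53% of coding genes), the same 5 as in E2A replicate 2. Without E2A replicate 1 the count of genes near an E2A peak was 5 instead of 8, and that of genes with an E2A promoter peak 1 instead of 6.

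**Figure D1:**
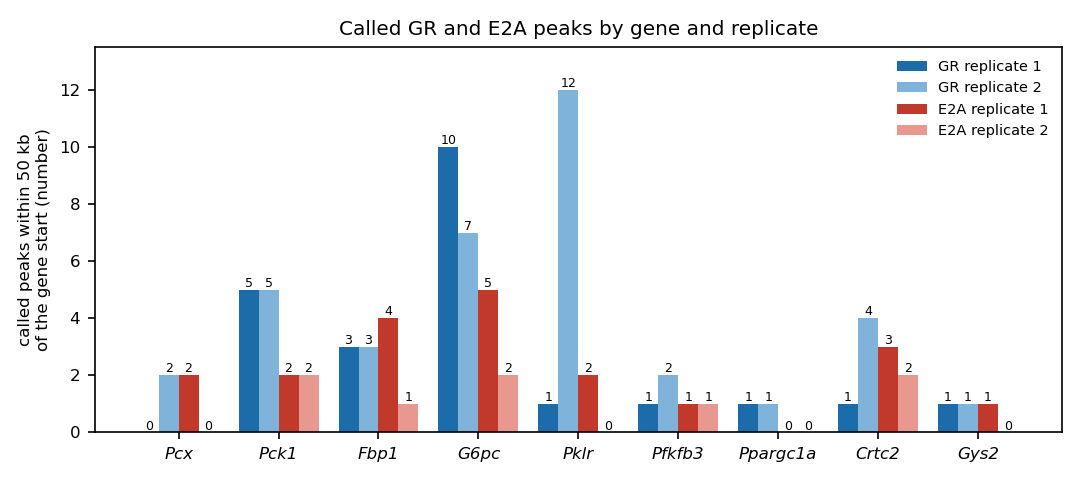
Number of called peaks within 50 kb of the gene start (y axis) for each of the 9 genes (x axis), 1 bar for each replicate of GR (blue) and E2A (red). G6pc had 10 and 7 GR peaks and Pklr 1 and 12, whereas Ppargc1a had no E2A peak in either replicate.

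Peaks within 1 kb of the gene start were less evenly spread over the replicates. GR replicate 1 had them at 5 genes, Pck1, G6pc, Fbp1, Pklr and Gys2, and replicate 2 at these and Pcx, against 6.22% and 18.8% of coding genes. E2A replicate 1 had them at the same 6 genes as GR replicate 2 (7.73% of coding genes), and E2A replicate 2 at Pck1 alone (3.22%). In any replicate 6 genes had a promoter peak of GR (19.6% of coding genes) and 6 of E2A (8.51%). When every annotated coding start was used, GR replicate 1 gained Pcx, and both E2A replicates gained Pfkfb3.

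**Figure D2:**
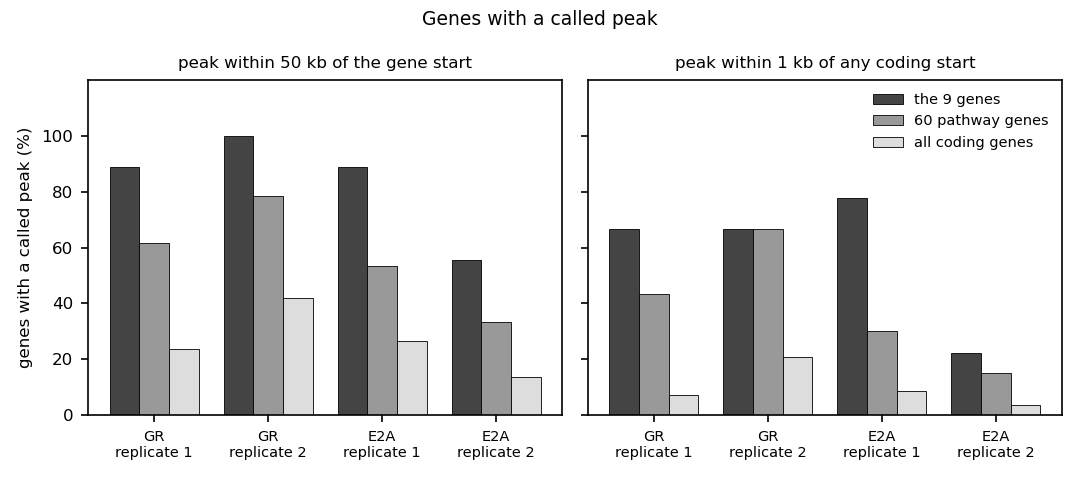
Share of genes (y axis, %) with a called peak in each list (x axis), for the 9 genes, for 60 further genes of glucose metabolism and for all 21911 coding genes; the left panel counts peaks within 50 kb of the gene start and the right panel those within 1 kb of any coding start. In every list the 9 genes had a share above that of all coding genes. They were chosen with results of these data known.

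In number, 23 and 37 GR peaks and 20 and 8 E2A peaks lay within 50 kb of the 9 genes. Both GR counts were above both E2A counts, with means of 30 ± 9.90 and 14 ± 8.49 (SD, n = 2 each). An exact two-sided permutation test gave p = 0.33, which is the smallest value that 2 against 2 samples allow. Per 1000 called peaks of each list, the values were 5.36 and 5.05 for GR and 4.97 and 4.23 for E2A (5.20 ± 0.223 and 4.60 ± 0.521, SD, n = 2 each, exact permutation test, p = 0.33). The difference of 0.606 per 1000 was of the size of the SD between the E2A replicates.

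Most E2A regions at these genes lay on GR regions. After peaks of both replicates that shared at least 1 bp were merged, 20 E2A regions lay within 50 kb, and all 20 met a GR region (100%, 95% exact binomial interval 83.2 to 100%), where 58.1% of all 4783 E2A regions did. Several of the 20 met a peak of GR replicate 2 only, the longer list. Among them were both E2A regions of Pcx and those at Slc39a1, Gatad2b and Gm45927. The E2A share without GR replicate 2 was not taken. Of 41 GR regions within 50 kb, 19 met an E2A region (46.3%, 30.7 to 62.6%), where 30.7% of all 8795 GR regions did. These intervals cover counting error only, and regions of 1 gene are not independent. The GR share rested on E2A replicate 1, without which it was 17.1%. The share over all GR regions was not taken without that list, so 17.1% cannot be set against 30.7%. Called in both replicates were 16 of the 41 GR regions (39.0%) and 7 of the 20 E2A regions (35.0%), beside 31.1% and 23.4% of all GR and E2A regions. With all peaks of the rule, also those beyond 50 kb, the 4 lists formed 47 loci, of which 28 had GR only, 17 had both and 2 had E2A only. All 4 lists called 5 of the loci, at Pck1, G6pc, Fbp1, Pfkfb3 and Crtc2, and 22 were in 1 list. By the deposited annotation, 48.1% of the peaks of these genes in GR replicate 1 and 26.2% in replicate 2 were distal intergenic, beside 26.8% and 17.8% of all peaks of these lists. For E2A the shares were 14.3% and 22.2%, beside 23.6% and 25.3%.

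Pcx had its peaks at separate starts. The gene (chr19:4510472-4621752) is transcribed from a distal start at its 5′ end and from a proximal one inside the annotated gene, known for its use in gluconeogenic and lipogenic tissue. The proximal start at 4594346 lay under GR peaks of replicate 1 (4593856-4594393) and replicate 2 (4594014-4594372) and under no E2A peak. An intronic site 5454 bp before it (chr19:4588501-4588892) was likewise called in both GR lists and in no E2A list. The distal start was under a peak of GR replicate 2 (4510396-4510765) and of E2A replicate 1 (4510150-4510816), and the same lists shared a site 12463 bp upstream, inside 2010003K11Rik. GR at the proximal start was the replicated signal, and at the distal start each ChIP had 1 of its 2 replicates. Introns held 2 further peaks of GR replicate 2.

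Pck1 carried the most uniform pattern. A single peak of 8532 bp in GR replicate 1 (chr2:173152385-173160916), of 8284 bp in GR replicate 2 and of 8188 bp in E2A replicate 1 ran from the promoter through the whole gene (173153048-173159273, plus strand) and past its end. In E2A replicate 2 the same stretch was called as a peak of 5352 bp and another of 1333 bp. Thus, the merged GR and E2A regions shared 8309 bp, 97.4% of the GR region. It was the widest of all 4291 peaks in GR replicate 1 and of all 4028 in E2A replicate 1, with 11 wider peaks in GR replicate 2 and 1 in E2A replicate 2. Median widths of the lists were 349 to 408 bp.

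Upstream of Pck1 the ChIPs differed. Peaks 4762, 5744 and 8901 bp before the start were called in both GR replicates and in neither E2A replicate. All 3 are intergenic in the deposited annotation. A site 28270 bp upstream, nearest to Ctcflos, was in both GR lists and in E2A replicate 1. All 5 GR regions of Pck1 were found in both replicates, and 2 of them met an E2A region. Called peaks within 50 kb covered 10603 and 10613 bp for GR and 8672 and 6685 bp for E2A, nearly the same length in the GR replicates.

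**Figure D3:**
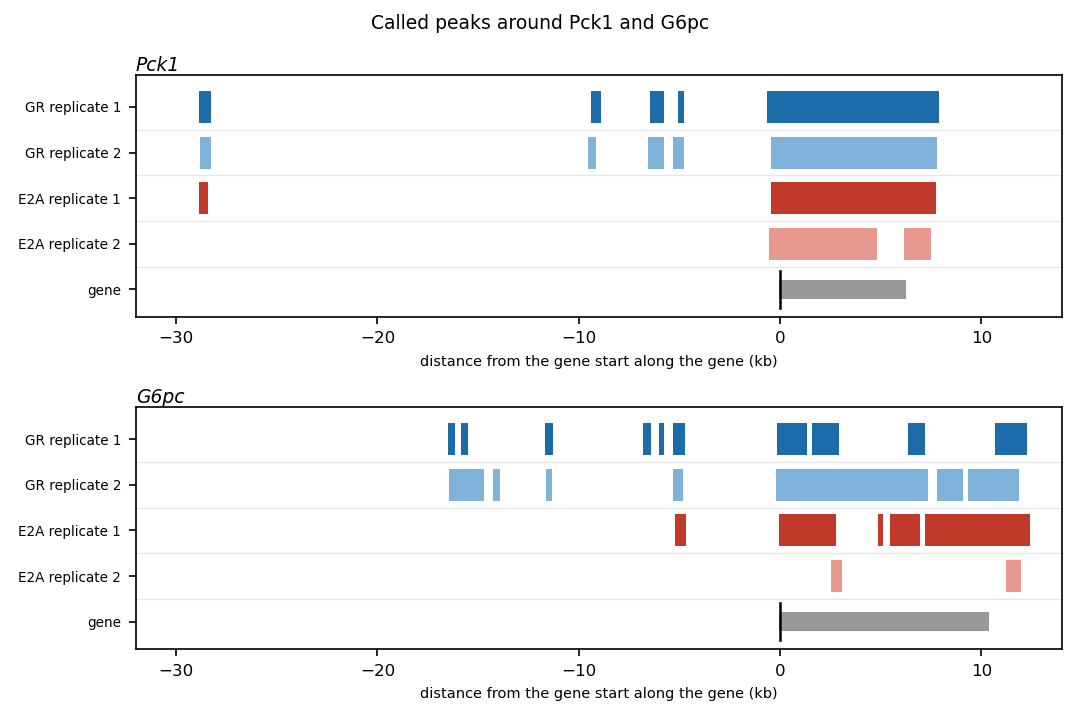
Called peaks (coloured boxes, 1 row for each replicate) around Pck1 and G6pc against distance from the gene start along the gene (x axis, kb); the grey bar is the gene and the black line its coding start, and narrow peaks are drawn at a minimum width. Peaks of all 4 lists lay over both genes, whereas upstream boxes were mostly blue (GR).

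At Fbp1, each of the 4 GR regions met an E2A region. The promoter (gene at chr13:62864753-62888282, minus strand) was called in GR replicate 1 (62887854-62888479), GR replicate 2 (62886914-62888598) and E2A replicate 1 (62887946-62888391). A site 19702 bp upstream, intergenic and nearest to Fbp1, was called in all 4 lists, with widths of 358 and 265 bp for GR and 624 and 441 bp for E2A. Within the gene, 1 intronic site was shared by GR replicate 1 and E2A replicate 1 and another, 3772 bp inside, by GR replicate 2 and E2A replicate 1. The overlap was 204 bp at the first (44.3% of the GR region) and 87 bp at the second (14.9%), where the peaks met at their edges. Neither intronic site was called in both replicates of a ChIP.

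The 249 bp common to all 4 peaks of the upstream Fbp1 site are shown because it is a locus of these genes called in every list and lies outside annotated exons. They held CAGCTG at 2 positions, CAAATG overlapping a C/EBP-like TTGCCCAA, CAAGTG and TAACGTCA, 1 mismatch from the CRE, all in capitals and read along the strand of the gene. No GRE was found in them. In the central 200 bp of all E2A regions of at most 2000 bp, 11.8% held CAGCTG and 59.3% any CANNTG. A CRE at this tolerance was in 12.3% and TTGCNNAA in 15.1%. These windows are shorter than the 249 bp. The intronic Pfkfb3 site was also called in every list outside exons, but the 49 bp common to its peaks held none of these sequences and are not printed.
Fbp1 upstream site (mm10, chr13:62908247-62908495, minus strand): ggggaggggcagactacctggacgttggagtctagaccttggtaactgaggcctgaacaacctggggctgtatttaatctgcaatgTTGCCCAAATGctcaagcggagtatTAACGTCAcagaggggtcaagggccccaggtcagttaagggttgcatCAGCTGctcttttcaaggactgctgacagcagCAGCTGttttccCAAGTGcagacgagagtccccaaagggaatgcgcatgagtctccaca

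G6pc had 10 and 7 GR peaks and 5 and 2 E2A peaks. Just 7 coding genes had more peaks than G6pc in GR replicate 1 and 109 in GR replicate 2. Fewer peaks did not mean less covered sequence, since GR replicate 2 covered 14314 bp within 50 kb and replicate 1 covered 7571 bp. The promoter and gene body (gene at chr11:101367561-101377903, plus strand) lay under a peak of 7587 bp in GR replicate 2, followed by peaks of 1272 and 2537 bp, under separate peaks of 1487, 1313 and 846 bp in GR replicate 1, and under peaks of 2817, 279 and 1461 bp followed by 1 of 5205 bp over the 3′ end in E2A replicate 1. In E2A replicate 2 there were peaks of 580 bp in an intron and 703 bp beyond the gene, with none at the promoter. The covered length was 10300 bp in E2A replicate 1 and 1283 bp in replicate 2, so that the E2A range overlapped the GR range.

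Before the G6pc start, a site at 4687 bp was called in both GR lists and E2A replicate 1. Sites at 11302 and 14700 bp were called in both GR lists, without E2A. Those at 5751 and 6424 bp were found in GR replicate 1 and that at 13909 bp in GR replicate 2. Of 7 loci at this gene, 5 were called for GR only.

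Pklr had its replicated GR peak at an internal start. This peak lay over the coding starts at 89136572 and 89136579, the promoter of the liver enzyme, in GR replicate 1 (chr3:89136402-89136874), GR replicate 2 (89136382-89137863) and E2A replicate 1 (89136419-89136687), and began 240 bp past the gene's 5′ end, so that no peak covered the upstream start. These peaks contain the ChoRE printed above. GR replicate 2 had 11 other peaks in the neighbourhood, 12 within 50 kb in all against 1 in replicate 1, and 6 of the 12 had another gene as the nearest, among them Fdps and Scamp3. E2A replicate 1 also had a peak 28599 bp past the gene start, at Gm45927, and E2A replicate 2 had none. Just 1 of the 12 GR regions of Pklr was called in both replicates.

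Pfkfb3 shared 1 intronic site between all lists and had E2A alone at an internal start. The site (chr2:11534838-11535897, 18180 bp inside the gene) was called with widths of 965 and 493 bp for GR and 576 and 616 bp for E2A. The 4 peaks had 49 bp in common, and the peaks of GR replicate 2 and E2A replicate 2 met over these bases only. At the starts 11501700 to 11502101, E2A replicate 1 had a peak at 11501361-11501702 and replicate 2 at 11502020-11502293. They lay over neighbouring starts and did not overlap each other, and no GR list had a peak there. These were the 2 loci of the 47 with E2A only. A GR peak near Rbm17 in replicate 2 and an intergenic one beyond the gene in replicate 1 were each in a single list.

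**Figure D4:**
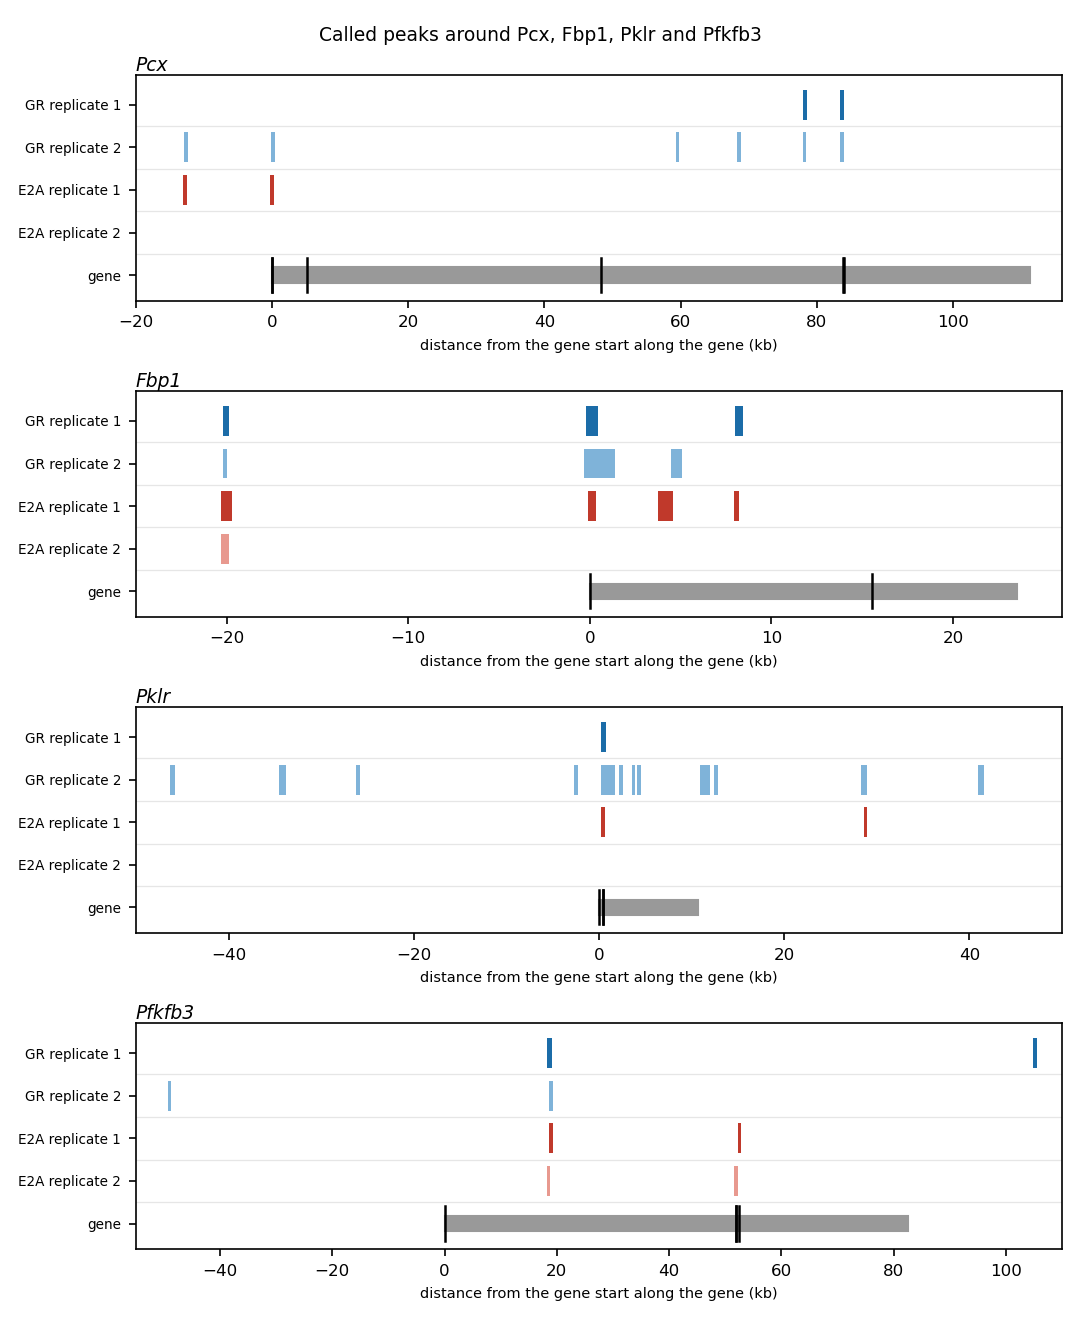
Called peaks (coloured boxes, 1 row for each replicate) around Pcx, Fbp1, Pklr and Pfkfb3 against distance from the gene start along the gene (x axis, kb, scale differs by panel); grey bars are genes, black lines are annotated coding starts, and narrow peaks are drawn at a minimum width. GR was called at the proximal start of Pcx and E2A at the internal starts of Pfkfb3, each without the other.

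Ppargc1a had GR peaks only. A distant intergenic site, 278118 bp along from the gene start (chr5:51289154-51289608) and past the end of the gene, was called in both GR replicates. The intronic peaks were in 1 list each, at 51537146-51537477 in GR replicate 1 and at 51552522-51552887 in GR replicate 2, the latter 1004 bp from an internal coding start. No E2A list had a peak within 50 kb or with Ppargc1a as the nearest gene, and no promoter peak was called at any of its 3 coding starts.

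Crtc2 was the nearest gene of no peak in any list. Its window (start at chr3:90254163) held 1 and 4 GR peaks and 3 and 2 E2A peaks that lists assigned to neighbours. The site 10653 bp past the start, just beyond the gene's end and nearest to Dennd4b, was called in all 4 lists, and that at Gatad2b in GR replicate 2 and both E2A replicates. A peak at Slc39a1, 5764 bp upstream, was in GR replicate 2 and E2A replicate 1. For this gene the assignment rests on the window alone, and with a window of 10 kb 1 GR and 1 E2A region remained.

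Gys2 had a single locus, its promoter. It was called in GR replicate 1 (chr6:142472924-142473258), GR replicate 2 (142472690-142473613) and E2A replicate 1 (142472819-142473085), with the gene start at 142473109. The E2A peak ended 24 bp inside the start, and E2A replicate 2 had no peak within 50 kb.

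**Figure D5:**
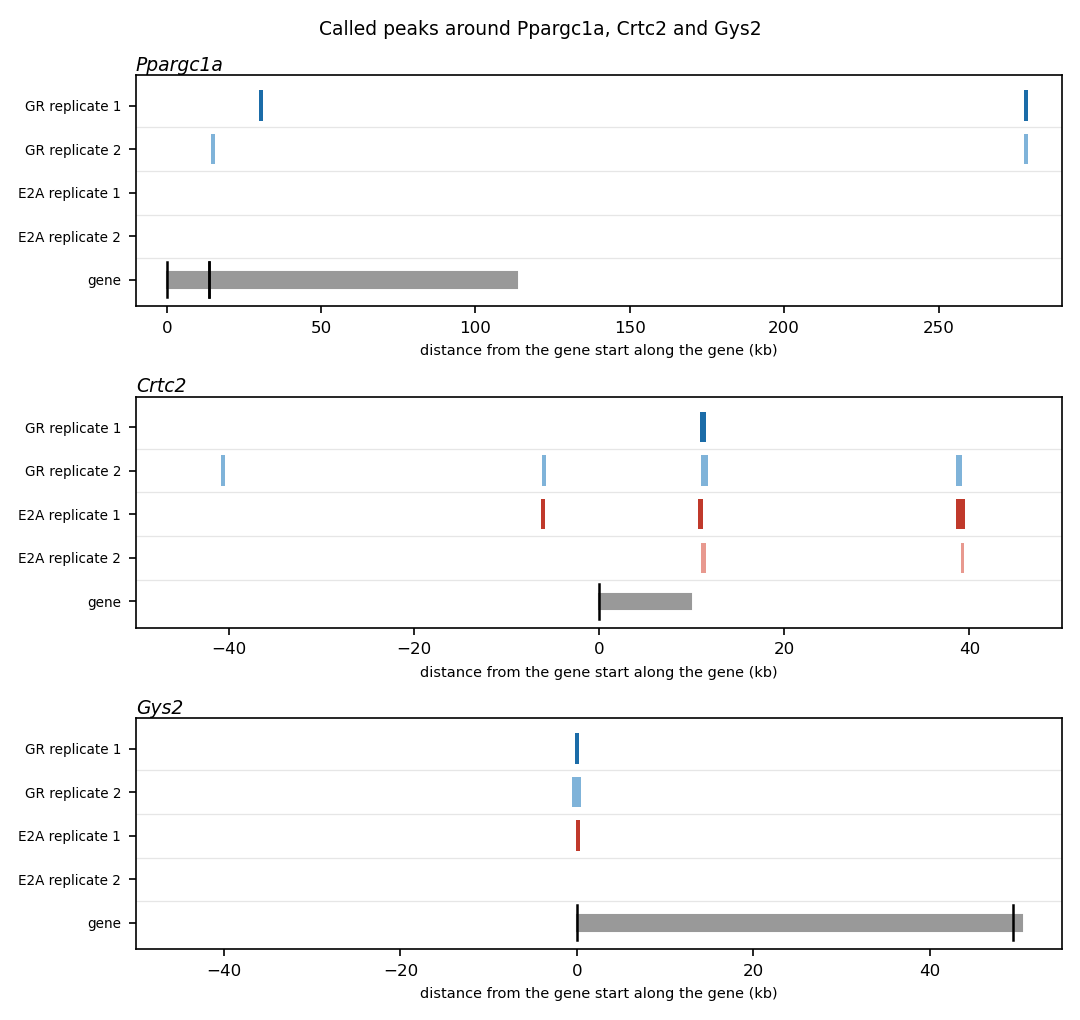
Called peaks (coloured boxes, 1 row for each replicate) around Ppargc1a, Crtc2 and Gys2 against distance from the gene start along the gene (x axis, kb, scale differs by panel); grey bars are genes, black lines coding starts, and narrow peaks are drawn at a minimum width. Ppargc1a had peaks in the GR rows only, and the Crtc2 peaks lay outside the gene.

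GREs were few in the centres of these regions. In the central 200 bp of GR regions of at most 2000 bp within 50 kb, a GRE with at most 2 mismatches was found in 5 of 38 (13.2%, 95% exact binomial interval 4.41 to 28.1%), and in 17.8% of all such GR regions. Among the regions called in both GR replicates it was found in 0 of 13. The share over all GR regions called in both replicates was not taken, so this count has no background beside it. In E2A regions it was found in 0 of 17 (upper limit of the interval 19.5%), and in 10.4% of all. CANNTG was in 28 of 38 GR windows (73.7%, 56.9 to 86.6%) and 12 of 17 E2A windows (70.6%, 44.0 to 89.7%), beside 54.7% and 59.3% of all windows. The GRE share among the 9 genes thus could not be told from the background at this number of regions.

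Closer matches were few in number, and their rate over all GR regions was not taken. Over whole regions, also beyond 50 kb, a GRE with no mismatch was found once, in the Ppargc1a intron peak of GR replicate 1, and those with 1 mismatch in the distant Ppargc1a site, upstream of G6pc and in an Fbp1 intron. These 4 matches lay in 44915 bp of GR regions. None was found in the 27578 bp of E2A regions, a number too small to read as a difference between the ChIPs. They are printed with 10 bases on either side (mm10), the GRE in capitals.
Ppargc1a intron, 0 mismatches (chr5:51537244-51537258, plus strand): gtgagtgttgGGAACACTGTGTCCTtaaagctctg
Ppargc1a distant site, 1 mismatch (chr5:51289323-51289337, plus strand): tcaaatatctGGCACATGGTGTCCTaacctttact
G6pc upstream, 1 mismatch (chr11:101360883-101360897, plus strand): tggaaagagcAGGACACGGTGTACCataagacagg
Fbp1 intron, 1 mismatch (chr13:62879945-62879959, plus strand): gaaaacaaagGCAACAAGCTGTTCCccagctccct
Of these 4 regions, the distant Ppargc1a site was called in both GR replicates and the other 3 in replicate 1.

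A list of 60 further genes of glucose metabolism gave a wider view. GR peaks lay within 50 kb of 37 and 47 of them (61.7% and 78.3%, beside 23.6% and 41.8% of coding genes). For E2A the counts were 32 and 20 (53.3% and 33.3%, beside 26.5% and 13.7%). A peak in all 4 lists was found for 12 (20%, beside 7.53% of coding genes). Among these were Fbp2, Pfkfb2, Mpc2, Gpt2, Gys1, Ppp1r3g, Khk, Mlxipl, Sik1, Gcgr and Gnmt. Mlxipl, which encodes ChREBP, had 2 and 5 GR and 4 and 2 E2A peaks. Gcgr, the glucagon receptor, had 5 and 9 GR and 1 and 1 E2A peaks. Fbp2 neighbours Fbp1, and its counts of 3, 3, 4 and 1 were the same as those of Fbp1. Slc2a2, the hepatocyte glucose transporter, had 5 and 4 GR and 2 and 0 E2A peaks. No list had a peak within 50 kb of 11 of the 60, namely Hk1, Hk2, Pfkfb4, Pgk1, Pdk4, Pdha1, Gyg, Pgm2, Phka2, Crtc3 and Kat2a. Hk1 and Hk2 are the hexokinases of other tissues, but why these 11 genes had no peak was not tested. The share of all coding genes without any peak was not taken.

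The genes most like Pck1 in the length covered by peaks within 50 kb over the 4 lists were Ctcfl, which lies 33523 bp away and shares its peaks, and Apoa5 and Zpr1, which share a neighbourhood on chromosome 9. Apoa5, an apolipoprotein gene of the liver, was covered over 11507 and 14884 bp by GR and 7209 and 7981 bp by E2A. The distance on the log2(bp + 1) scale was 0.62 for both and 0 for Ctcfl. Those most like G6pc were Aoc3 (0.14) and Aarsd1 (0.48), which lie 36956 and 50054 bp from it and hold many of its peaks, and Marveld3 (1.01) on chromosome 8. The pattern of G6pc was thus matched less closely outside its own neighbourhood than that of Pck1.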

How the data were processed

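The files analysed are lists of called peaks, 1 for each of the 4 samples. According to the methods and the submitters' processing notes, the authors mapped the reads with BWA-MEM 0.7.13 (mm10), removed duplicates with Picard (1.119 in the notes), sampled 18 mio (GR) or 22 mio (E2A) read pairs and ran MACS2 (2.1.0 in the notes) on each sample. The control, the threshold and the annotation tool are not given in the sources used here. The deposited values are peak coordinates, widths and distances to a start site in bp, without counts.

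Start sites were those of coding genes in GENCODE M21, and 87.5% of the deposited transcripts began within 100 bp of one. Peaks were merged or called shared at 1 bp of overlap. Motifs were read from the GRCm38.p6 genome. GR and E2A were compared with an exact two-sided permutation test. Python 3.11.15 was used with scipy 1.17.1, pandas 2.3.3 and pysam 0.24.0, and the code was tested on simulated data. Alternatives changed the window, overlap, replicates, start sites and mismatches. The genes, lists and motifs were chosen with earlier results of these data known. The paper's text describes E2A ChIP from the livers used for GR, whereas the replicate numbers of labels and list names conflict, so numbers were not taken as pairs. The values of some genes of the wider list are not reported here.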

Additional observations from a re-analysis of the deposited data

How the results depend on the processing

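The excess of GR over E2A peaks within 50 kb (16 in number, 0.606 per 1000 called peaks) kept its direction under each alternative tried, with exact p-values of 0.33 to 0.67. Taking the replicate numbers as pairs (replicate block) leaves the differences at 16 and 0.606 by arithmetic, so this alternative could not change them. The exact sign-flip test on the pairs gave p = 0.5, the smallest that 2 pairs allow. Leaving out 1 replicate at a time gave 9 to 23 peaks and 0.237 to 0.974 per 1000.

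The E2A counts rested most on replicate 1. With regions called in both replicates, 5 instead of 8 genes had an E2A region within 50 kb and 2 instead of 6 a promoter region, Pck1 and G6pc. At G6pc this holds for the merged region only, since the E2A replicate 2 peak in it began 2515 bp past the start. Leaving out 1 E2A replicate gave 5 to 8 and 1 to 6 genes. The share of GR regions that met an E2A region was 17.1 to 60.9% without 1 replicate, with no share over all GR regions taken for these settings. The share of GR regions with a GRE was 42.1% over whole regions, 5.26% (2 of 38) with at most 1 mismatch, 0% (0 of 13) for regions called in both GR replicates and 13.6 to 14.7% without 1 replicate. For none of these settings was the share over all GR regions taken. A count of genes was taken as unmoved within 1.5 times its value and a share within its 95% interval. A difference in peaks was taken as unmoved where it kept its direction, whatever its p-value. Without 1 replicate it also had to move by less than 1 SD. By these wide limits 47 of 54 alternatives did not move, among them a difference of 8 instead of 16 peaks with a window of 10 kb. The 47 also include the replicate block, which could not move. Counts at single genes moved by over 1.5 times in 16 of 54 alternatives, mostly with the window. The reads behind a peak are not known.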
